A study of Homo sapiens with 6 samples.

Results

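Nuclear pore and nuclear transport genes were examined in bulk RNA-seq of H9 cells, an established clonal line of human T-cell lymphoma. The members were chosen by a rule on gene symbols that uses no measured value, although the theme was proposed with earlier results of these data known. The rule took names that begin with NUP, XPO, IPO, KPNA, KPNB, TNPO or RANBP and a number (or XPOT), and RAN, RANGAP1, RCC1, TPR, NDC1, POM121, SEH1L and AAAS. Of 94 names found, 8 with a hyphen and 22 with a pseudogene suffix were left out, which gave 64 genes of 61541 in the count table. The question was how the mRNAs of this transport system differed after inhibition of CDK9, the kinase that releases paused RNA polymerase II into elongation. All 6 libraries came from H9 cells of WT genotype. The 3 control libraries were treated with DMSO, the vehicle, and the other 3 with AZD4573, a selective CDK9 inhibitor, for 4 h at 50 nM. Nothing in the labels says that replicates came from separate cultures, so that p values measure the spread between libraries, which may be technical.

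The nuclear pore is a ring of nucleoporins set into the nuclear envelope. A Y-shaped complex and an inner ring form its scaffold, phenylalanine-glycine repeat proteins fill the channel, and filaments and a basket project to the cytoplasm and the nucleus. Importins and exportins carry cargo through it, and the small GTPase RAN, loaded with GTP in the nucleus by RCC1 and discharged in the cytoplasm with RANGAP1, sets the direction. In T-cell lymphoma, XPO1 is of interest as the exportin blocked by selinexor.

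Total counts were 70367303 to 76571157 with DMSO and 52101868 to 63795185 with AZD4573. Levels are given as CPM, counts scaled to a common library total with edgeR's TMM factors. Of 10 T-cell markers, 9 reached 1 CPM in a library, all but CD2, and their summed level was 1286 to 1296 CPM with DMSO and 1438 to 1479.9 CPM with AZD4573. Each of 4 myeloid markers was under 1 CPM, and so were 3 of 4 B-cell markers, CD79A being the exception. Of 5 markers of other cells, EPCAM and COL1A1 reached 1 CPM and COL1A2, PECAM1 and HBB did not. These 5 summed to 155 to 172 CPM with DMSO and 135 to 140 CPM with AZD4573. The B-cell markers summed to 55.4 to 61.3 CPM with DMSO and 89.1 to 99.0 CPM with AZD4573, and their part in the results was not tested. In bulk RNA, fewer cells of a type and less RNA per cell cannot be told apart.

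Under TMM scaling, most nuclear pore and transport genes were lower upon AZD4573 treatment, by a modest amount. The filter on low counts passed 59 of the 64 members. Calls required a fold change of 1.5 or more and a p below 0.05 in the quasi-likelihood test of edgeR, adjusted by Benjamini-Hochberg over the 17678 genes tested. Log2 fold changes are given with their standard error (SE), and "fell" and "rose" are used here for called genes. By this rule 23 members fell, or 39.0% of those tested, where 23.7% of all genes tested did. XPO6 alone rose, where 22.7% of all genes did. By the adjusted p without a fold threshold, 44 members were lower (74.6%, against 37.4% of all genes) and 8 were higher (against 37.3%). At a fold change of at least 2 only 5 members were called lower (8.47%), against 13.9% of all genes, and 0 higher, against 15.0%. The members thus held a larger share of falls than all genes at the lower threshold and a smaller one at the higher threshold. Each AZD4573 library lay below each DMSO library for 46 of the 59 members (against 38.7% of all genes) and above each for 9 (against 39.0%).

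The median log2 fold change of the 59 members was -0.39, beside 0.026 over all genes tested and -0.073 over the 13423 protein-coding genes tested. The quartiles of the members were -0.66 and -0.096. Of protein-coding genes alone, 27.2% were called lower and 18.2% higher. Summed over members, the level went from 10385 ± 69.1 to 9191 ± 92.0 CPM (SD, n = 3), or 88.5% of the DMSO level. Of the 27 pore subunits 14 fell (51.9%) and 0 rose. Of the 24 carriers 7 fell (29.2%, near the 27.2% of protein-coding genes) and 1 rose. The median log2 fold change was -0.61 for pore subunits and -0.37 for importins and exportins. The difference between these groups was not tested.

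**Figure D1:**
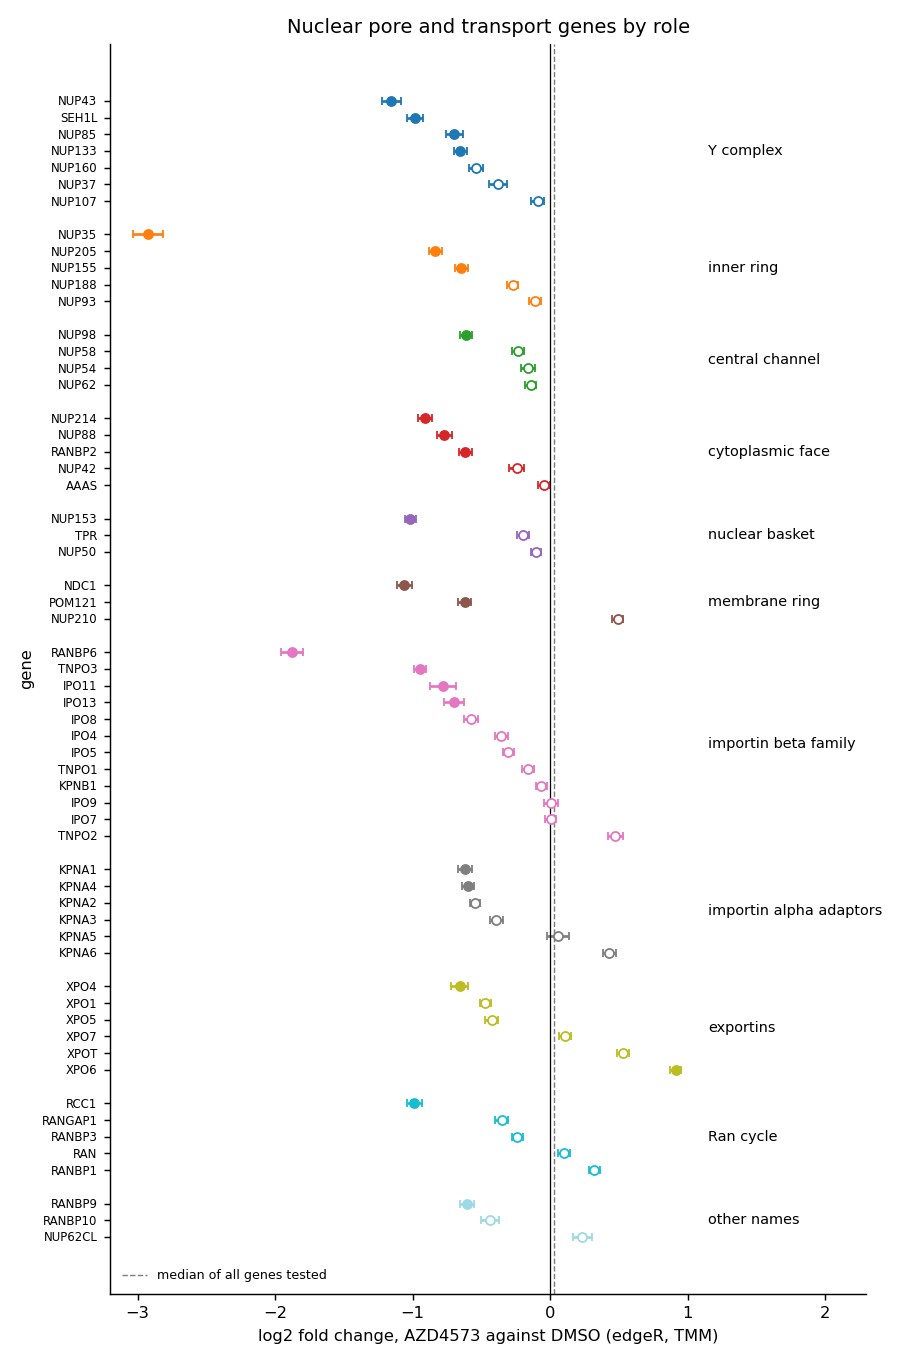
Log2 fold change of each of the 59 tested members, AZD4573 against DMSO, grouped by role, with edgeR estimates as points (filled where called) and standard errors as bars. NUP35 at -2.93 and RANBP6 at -1.88 lie farthest to the left, and XPO6 at 0.91 is the one filled point on the right.

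**Figure D2:**
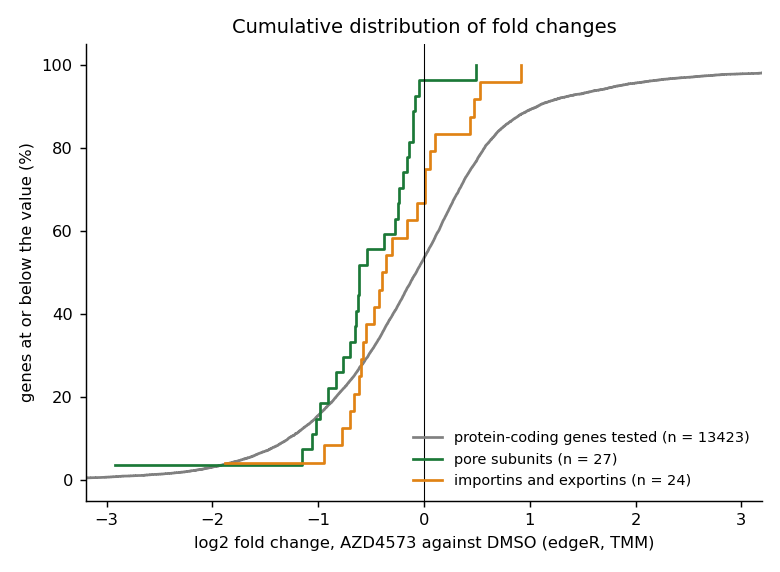
Cumulative share of genes (%) against the log2 fold change for 27 pore subunits, 24 importins and exportins and 13423 protein-coding genes. Around their medians of -0.61 and -0.37 both member curves lie left of that of protein-coding genes, and 26 of 27 pore subunits lie below 0.

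The bases upstream of 4 genes are shown because these genes mark the ends of the range and the divergent pair described further on: NUP35 and RANBP6 had the largest falls, XPO6 was the single called rise, and NUP50 shares its upstream region with NUP50-DT. Each is the 250 bases before the annotated start (RefSeq, GRCh38.p14), which lie at chr2:183124193-183124442 on the plus strand, chr9:6015625-6015874 on the minus strand, chr16:28211966-28212215 on the minus strand and chr22:45163675-45163924 on the plus strand. For a gene with several RefSeq starts the first one listed was used. The NUP35 window lies inside the span of the gene in GENCODE, which begins at 183117513. Capitals mark matches on either strand to the GC box, spelled GGGCGG. They also mark the CCAAT box, spelled as its name. Further matches are those of the TATA box, spelled TATAAA. The last motif is the core of sites of ETS factors, spelled CCGGAAG.
NUP35: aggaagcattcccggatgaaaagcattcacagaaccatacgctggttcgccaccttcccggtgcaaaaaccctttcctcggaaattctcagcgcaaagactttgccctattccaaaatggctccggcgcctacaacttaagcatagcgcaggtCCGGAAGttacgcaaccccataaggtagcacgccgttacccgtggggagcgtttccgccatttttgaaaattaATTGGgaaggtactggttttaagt
RANBP6: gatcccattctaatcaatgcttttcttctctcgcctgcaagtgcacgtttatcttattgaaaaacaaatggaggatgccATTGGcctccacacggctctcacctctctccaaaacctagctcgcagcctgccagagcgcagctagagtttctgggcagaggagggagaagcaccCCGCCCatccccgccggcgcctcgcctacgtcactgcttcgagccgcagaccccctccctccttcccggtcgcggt
XPO6: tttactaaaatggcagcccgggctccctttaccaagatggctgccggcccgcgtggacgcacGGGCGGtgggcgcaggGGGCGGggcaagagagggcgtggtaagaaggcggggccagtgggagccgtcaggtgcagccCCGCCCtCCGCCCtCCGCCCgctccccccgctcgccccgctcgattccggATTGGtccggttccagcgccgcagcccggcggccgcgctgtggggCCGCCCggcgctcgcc
NUP50: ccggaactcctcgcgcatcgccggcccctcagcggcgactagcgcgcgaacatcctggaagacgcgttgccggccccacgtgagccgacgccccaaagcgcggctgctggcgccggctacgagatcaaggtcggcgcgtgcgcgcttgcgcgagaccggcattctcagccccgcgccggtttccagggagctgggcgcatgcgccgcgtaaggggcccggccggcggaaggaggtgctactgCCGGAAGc
The XPO6 window held 6 GC boxes, the RANBP6 window 1 and the windows of NUP35 and NUP50 0 each. Guanine and cytosine made up 50.0% of the NUP35 window, 58.4% of that of RANBP6, 75.2% of that of XPO6 and 72.8% of that of NUP50, beside a median of 58.0% over 27305 such windows. Windows were found for 56 members, of which 31 held a GC box (55.4%, against 42.3% of all windows), 24 a CCAAT box (42.9% against 33.0%), 3 a TATA box (5.36% against 11.1%) and 15 the ETS core (26.8% against 8.82%). The 27305 windows include those of noncoding genes. The capitals of different motifs did not overlap in the windows shown, and a match is a string of letters and not a measured site.

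Exons of 30 of the 59 tested members share bases with another annotated gene, 11 of them over at least 10% of their exon bases, and counts made without strand cannot separate such pairs.

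The scaffold of the pore fell in part. Of the 7 members of the Y complex, which coats the membrane at both faces of the pore, NUP43, SEH1L, NUP85 and NUP133 fell. These were 57.1% of the 7, where 23.7% of all genes tested fell. The median log2 fold change of the 7 was -0.65. NUP43 was at 126, 131 and 129 CPM in the DMSO libraries and 66.0, 53.0 and 54.1 CPM in the AZD4573 libraries, a log2 fold change of -1.16 (SE 0.0702, adjusted p = 5.3e-09). The groups did not overlap, and 44.9% of the DMSO mean remained. SEH1L, a WD-repeat subunit that also serves in amino acid sensing upstream of mTORC1, was at 70.9, 67.6 and 64.7 CPM in the DMSO libraries and 37.1, 32.4 and 33.3 CPM in the AZD4573 libraries, a log2 fold change of -0.98 (SE 0.0605, adjusted p = 6.0e-09). Here too each treated library was below each control. NUP85 (-0.70) and NUP133 (-0.65) fell, while NUP160 (-0.54) and NUP37 (-0.38) were lower by the adjusted p without reaching a fold change of 1.5. NUP107, a central subunit of the same complex, had a log2 fold change of -0.089 (adjusted p = 0.101), with groups that overlapped. SEC13, a further subunit that the name rule does not take, was at 121, 116 and 115 CPM in the DMSO libraries and 129, 134 and 135 CPM in the AZD4573 libraries, with a log2 difference of 0.18 (SE 0.0423, adjusted p = 0.00200). Its treated libraries lay above the controls, under the fold threshold. The summed level of the 7 members, without SEC13, went from 633 ± 15.7 to 411 ± 22.0 CPM (SD, n = 3).

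NUP35, which links the inner ring to the pore membrane, had the largest fall of all members. It was at 27.0, 25.6 and 25.3 CPM in the DMSO libraries and 4.28, 2.95 and 3.10 CPM in the AZD4573 libraries. The highest treated library was far below the lowest control, and 13.2% of the DMSO mean remained. The log2 fold change was -2.93 (SE 0.110, adjusted p = 1.0e-10). Its raw counts were 2121, 1879 and 1862 with DMSO against 218, 168 and 189 with AZD4573, so that the level did not rest on a few reads. NUP35 lies on chromosome 2 of GRCh38 from 183117513 to 183161680 (GENCODE release 44), and its exons share no base with another gene. The other inner-ring subunits spread widely. NUP205, a large scaffold subunit, was at 185, 195 and 202 CPM in the DMSO libraries and 114, 105 and 107 CPM in the AZD4573 libraries, a log2 fold change of -0.84 (SE 0.0483, adjusted p = 3.3e-09). It fell in each treated library. NUP155, which also contacts the membrane, fell with a log2 fold change of -0.64. NUP188, the paralogue of NUP205, was at -0.27, and NUP93, the linker to which NUP188 and NUP205 bind, was at -0.11 (adjusted p = 0.0375).

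Within each library, the share of a gene in the summed level of its role group does not depend on how libraries are scaled against each other. Shares were computed from CPM per kilobase of the canonical GENCODE transcript, a length that the cells need not use. NUP35 made up 18.1% ± 0.926 of the inner ring with DMSO and 3.93% ± 0.729 with AZD4573 (SD, n = 3). NUP188 went from 26.9% ± 0.205 to 36.9% ± 1.11 and NUP93 from 11.4% ± 0.193 to 17.5% ± 0.385. NUP205 had the largest share with DMSO, 33.3% ± 0.977, and the second largest, 30.8% ± 0.626, with AZD4573, and NUP35 passed from the third place to the last.

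The 4 subunits of the central channel and the 3 of the nuclear basket each had a median log2 fold change of -0.20, nearer to 0 than the other pore groups. NUP98, whose repeats bind carriers and which pairs with RAE1 in mRNA export, was at 205, 216 and 210.5 CPM in the DMSO libraries and 144, 135 and 134 CPM in the AZD4573 libraries, a log2 fold change of -0.61 (SE 0.0436, adjusted p = 2.6e-08). It was the one channel subunit that fell, and with only genes of at least 10 counts in each library tested it was at -0.57, under the fold threshold. NUP62, the core of the channel's repeat mesh, was at 180.2, 180.2 and 183 CPM in the DMSO libraries and 163, 169 and 162 CPM in the AZD4573 libraries, a log2 fold change of -0.14 (SE 0.0394, adjusted p = 0.00574). The groups did not overlap, and 90.8% of the DMSO mean remained. Its exons share 1210 bases with ATF5, IL4I1 and an unnamed gene. Its partners NUP54 (-0.16) and NUP58 (-0.23) were lower by a similar amount, with adjusted p of 0.0111 and 2.3e-04.

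On the cytoplasmic face, NUP214, NUP88 and RANBP2 fell and NUP42 and AAAS were not called. NUP214, a docking site of XPO1 and of the export helicase DDX19, was at 112, 120.4 and 122 CPM in the DMSO libraries and 65.5, 62.6 and 60.9 CPM in the AZD4573 libraries, a log2 fold change of -0.91 (SE 0.0496, adjusted p = 2.0e-09). Its partner NUP88 fell with a log2 fold change of -0.77. RANBP2, the giant filament protein that holds SUMO-modified RANGAP1 at the pore, was at 257, 262 and 269 CPM in the DMSO libraries and 183, 168 and 162 CPM in the AZD4573 libraries, a log2 fold change of -0.62 (SE 0.0484, adjusted p = 6.7e-08). Each treated library was below each control for these 3 genes. Without AZD4573 replicate 3 RANBP2 was at -0.58 and no longer called. RANBP2 shares long near-identical stretches with the RGPD genes, between which RSEM divides reads, and NUP88 shares 4240 exon bases with RPAIN and RABEP1 on the other strand, so that both values are less certain. NUP42, which activates the export helicase with GLE1, was at -0.24. AAAS, which is anchored by NDC1, had a log2 fold change of -0.044 (adjusted p = 0.405).

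In the nuclear basket NUP153 fell, while TPR and NUP50 were lower by less than 1.5-fold. This was 33.3% of the 3 genes, where 23.7% of all genes tested fell. NUP153, which anchors the basket to the pore and to the lamina, was at 254, 252 and 253 CPM in the DMSO libraries and 126, 125 and 124 CPM in the AZD4573 libraries, a log2 fold change of -1.02 (SE 0.0381, adjusted p = 9.4e-11). The 3 treated libraries were close together, at 49.4% of the DMSO mean, and 649 exon bases are shared with NUP153-AS1 on the other strand. TPR, the filament of the basket, was at 538, 564 and 553 CPM in the DMSO libraries and 472, 498 and 475 CPM in the AZD4573 libraries, a log2 fold change of -0.20 (SE 0.0412, adjusted p = 7.1e-04). NUP50, a mobile basket protein that helps release importin cargo, had a log2 fold change of -0.10 (adjusted p = 0.0287). The share of NUP153 in the basket went from 27.2% ± 0.447 to 17.0% ± 0.411 (SD, n = 3).

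Of the 3 subunits that cross the membrane, NDC1 and POM121 fell and NUP210 did not. The falls were 66.7% of the 3, where 23.7% of all genes tested fell. NDC1, which ties the scaffold to the membrane, was at 79.7, 80.0 and 75.8 CPM in the DMSO libraries and 40.0, 37.7 and 35.4 CPM in the AZD4573 libraries, a log2 fold change of -1.06 (SE 0.0546, adjusted p = 1.2e-09). It fell to 48.0% of the DMSO mean. POM121 fell less, with a log2 fold change of -0.62 (-0.58 and not called without AZD4573 replicate 3), and its reads can be shared with the near-identical POM121C, which was at -0.49. NUP210 went from 683 ± 5.55 to 961 ± 33.6 CPM (SD, n = 3), with a log2 difference of 0.49 (SE 0.0415, adjusted p = 1.4e-07). It was the one of the 27 pore subunits taken by the name rule with a positive value, under the 1.5-fold threshold, and scaled to the mitochondrially encoded mRNAs it turned to -0.25. Its share of the membrane ring went from 43.9% ± 0.558 to 63.8% ± 1.72, and that of POM121 from 48.1% ± 0.802 to 32.3% ± 1.49 (SD, n = 3). The ring's summed level hardly moved, from 1368 ± 26.4 to 1393 ± 35.0 CPM.

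**Figure D3:**
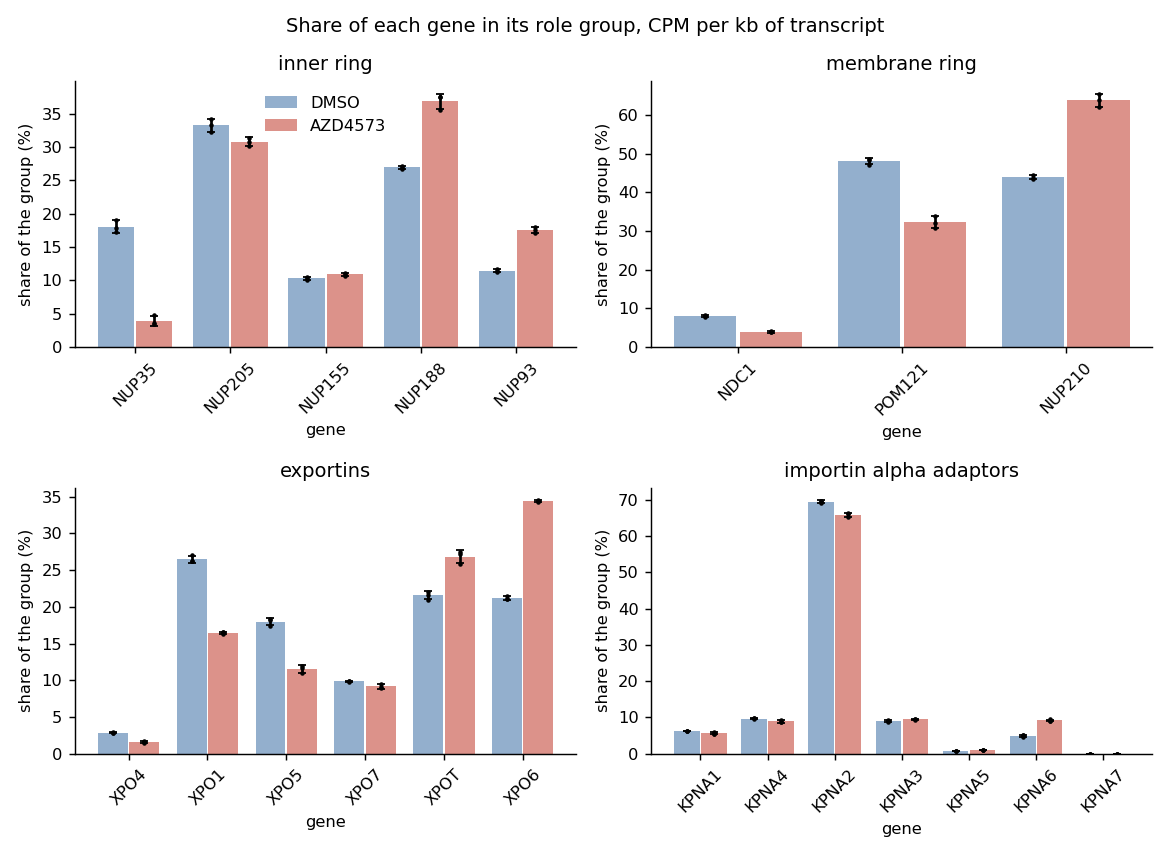
Share (%) of each gene in the summed CPM per kilobase of its role group, for the inner ring, the membrane ring, exportins and importin alpha adaptors. Bars are means of 3 libraries, error bars SD and dots single libraries. NUP35 drops to 3.93% of the inner ring, NUP210 reaches 63.8% of the membrane ring and XPO6 34.4% of the exportins, while KPNA2 stays the main adaptor.

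Of the 12 members of the importin beta family, which bind cargo or an adaptor and carry it into the nucleus, 4 fell and 0 rose. The 4 were 33.3% of the family, where 23.7% of all genes tested fell and 22.7% rose. RANBP6, a close relative of IPO5 encoded by 1 exon, was at 19.3, 20.1 and 20.2 CPM in the DMSO libraries and 5.72, 5.54 and 5.00 CPM in the AZD4573 libraries. The treated libraries were close together and far below the controls, at 27.3% of the DMSO mean, and the log2 fold change was -1.88 (SE 0.0777, adjusted p = 2.0e-10). IPO5 itself, which imports ribosomal proteins and histones, was at -0.30. TNPO3, the import receptor of SR splicing factors, was at 158, 155 and 152 CPM in the DMSO libraries and 83.1, 80.9 and 77.0 CPM in the AZD4573 libraries, a log2 fold change of -0.95 (SE 0.0444, adjusted p = 5.3e-10). The groups stood apart, and 51.9% of the DMSO mean remained. IPO11 (-0.78) and IPO13 (-0.70) also fell. IPO8 (-0.58), IPO4 (-0.36) and TNPO1 (-0.16), the receptor of hnRNP A1, were lower without reaching 1.5-fold. IPO8 passed that threshold with library size only (-0.68), with no filter (-0.62), and without DMSO replicate 1 (-0.59), DMSO replicate 3 (-0.59) or AZD4573 replicate 2 (-0.59). IPO4 shares 3414 of its 4912 exon bases with REC8 and an unnamed gene. IPO11 shares 1621 of 7540 with LRRC70 and an unnamed gene on the same strand, so that both values are less certain.

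KPNB1, importin beta itself and the main import receptor, made up 41.9% ± 0.642 of the importin beta family per kilobase with DMSO (SD, n = 3), the largest share. It was at 1017, 1004 and 994 CPM in the DMSO libraries and 964, 977 and 942 CPM in the AZD4573 libraries. Its log2 fold change was -0.065 (SE 0.0394, adjusted p = 0.152). The treated libraries lay just under the controls, by an amount that did not pass the test. IPO7 and IPO9, at 0.0062 and 0.0052, had adjusted p of 0.894 and 0.928 and overlapping groups, and both turned to -0.73 with mitochondrial scaling. TNPO2, the paralogue of TNPO1, went from 141 ± 11.4 to 196 ± 5.55 CPM (SD, n = 3), with a log2 difference of 0.47 (SE 0.0553, adjusted p = 3.6e-06), which turned to -0.26 when scaled to the mitochondrially encoded mRNAs. TNPO1 and TNPO2 thus differed in direction within the same libraries under TMM, and the difference between them was not tested.

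Importin alpha proteins bind a classical nuclear localization signal and hand the cargo to KPNB1. KPNA1 and KPNA4 fell, KPNA7, an oocyte and embryo form, reached no more than 3 counts in a library, and the other 4 were not called. The falls were 33.3% of the 6 tested adaptors, where 23.7% of all genes tested fell. KPNA2, the adaptor of dividing cells, was at 342, 331 and 331 CPM in the DMSO libraries and 226, 233 and 229 CPM in the AZD4573 libraries, a log2 fold change of -0.54 (SE 0.0384, adjusted p = 2.3e-08). It was just under the fold threshold with groups that did not overlap, and it passed the threshold with library size only (-0.65), with no filter (-0.59) and with mitochondrial scaling (-1.28). Several pseudogenes can share its reads. KPNA1, KPNA4 and KPNA3 were at -0.62, -0.59 and -0.39. KPNA4 was at -0.58 and not called without AZD4573 replicate 3. KPNA5 was at 0.061 (adjusted p = 0.509), or -0.68 with mitochondrial scaling. KPNA6 went the other way, from 87.9 ± 4.26 to 119 ± 4.53 CPM (SD, n = 3), with a log2 difference of 0.43 (SE 0.0492, adjusted p = 2.8e-06), or -0.31 with mitochondrial scaling. Its share of the adaptors went from 4.91% ± 0.313 to 9.15% ± 0.242, while KPNA2 kept the largest share, 69.5% ± 0.385 with DMSO and 65.9% ± 0.557 with AZD4573.

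The exportins, which need RAN with GTP to bind cargo, counted 3 of 6 tested members lower and 3 higher by the adjusted p alone, beside 37.4% and 37.3% of all genes. XPO6, the exportin of actin and profilin, was at 184, 183 and 183 CPM in the DMSO libraries and 343, 344 and 347 CPM in the AZD4573 libraries. Every treated library was well above every control, and the log2 fold change was 0.91 (SE 0.0370, adjusted p = 1.7e-10). It was the one member that stayed positive under mitochondrial scaling, at 0.17, where it was no longer called. XPOT, the exportin of tRNA, went from 261 ± 5.45 to 377 ± 13.9 CPM (SD, n = 3), with a log2 difference of 0.53 (SE 0.0417, adjusted p = 6.5e-08) that turned to -0.21 with mitochondrial scaling. XPO7 was at 0.11 (adjusted p = 0.0345), or -0.63 with mitochondrial scaling. It did not pass the adjusted p with library size only (0.933), with no filter (0.347) or with the replicate block (0.0540), nor without any single DMSO library or AZD4573 replicate 1 or 3 (0.0678 to 0.140).

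XPO1, which exports most proteins with a leucine-rich signal along with ribosomal subunits and snRNA, was at 246, 249.8 and 257 CPM in the DMSO libraries and 181, 179 and 183 CPM in the AZD4573 libraries. The log2 fold change was -0.47 (SE 0.0388, adjusted p = 1.1e-07), with groups that did not overlap, and 72.1% of the DMSO mean remained. XPO5, which exports microRNA precursors, was at -0.42, and XPO4 fell with -0.66. RANBP17 had 0 counts in each library. Within the exportins, XPO1 went from 26.5% ± 0.488 to 16.5% ± 0.130 and XPO6 from 21.2% ± 0.257 to 34.4% ± 0.0931 (SD, n = 3), so that XPO1 passed from the largest share to the third, behind XPO6 and XPOT. The summed level of the group went from 1022 ± 7.43 to 1171 ± 6.68 CPM, the largest relative gain of the role groups under TMM. As shares of their group, XPO6 and XPOT were higher and XPO1, XPO4, XPO5 and XPO7 lower in every AZD4573 library than in all DMSO libraries, whatever the scaling.

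**Figure D4:**
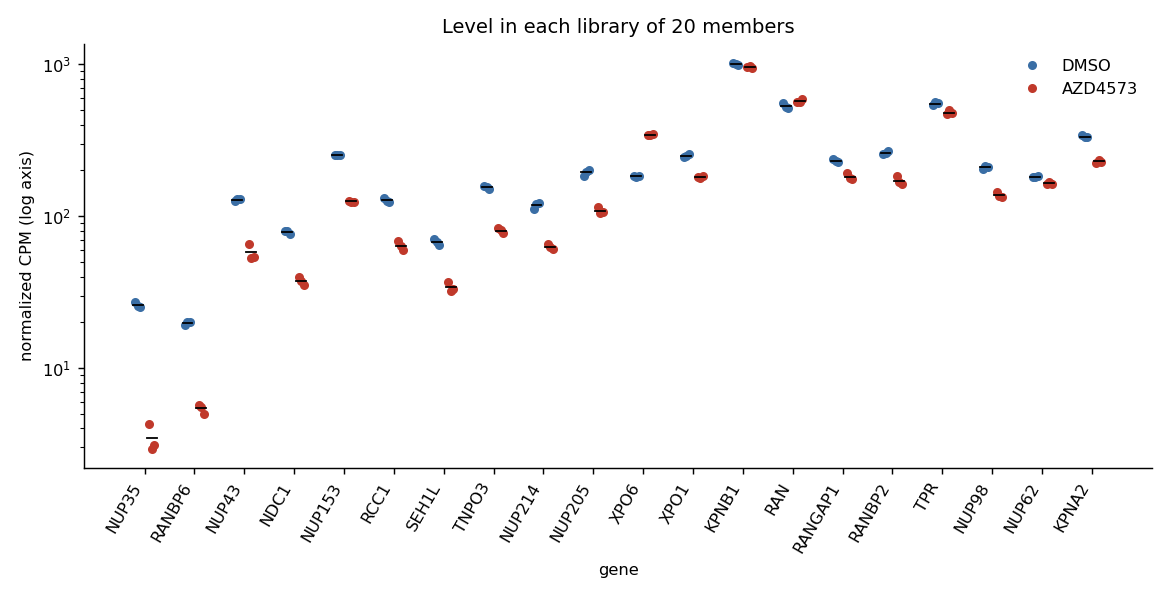
Normalized CPM on a log axis in each library of the 20 members described library by library. Blue dots are DMSO, red dots AZD4573 and black lines group means. The red dots of NUP35 lie near 3.44 CPM against 26.0 CPM, and those of KPNB1 and RAN are close to the blue dots.

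Of the RAN cycle, RCC1 fell and the other 4 members were not called. RCC1, the chromatin-bound exchange factor that loads RAN with GTP, was at 132, 125 and 123 CPM in the DMSO libraries and 68.8, 63.4 and 60.1 CPM in the AZD4573 libraries, a log2 fold change of -0.99 (SE 0.0543, adjusted p = 2.1e-09). All treated libraries were below the controls, at 50.5% of the DMSO mean. RCC1 shares 242 exon bases with SNHG3 on the same strand. RANGAP1, which triggers GTP hydrolysis by RAN, was at 236, 232 and 229 CPM in the DMSO libraries and 193, 178 and 176 CPM in the AZD4573 libraries, a log2 fold change of -0.35 (SE 0.0446, adjusted p = 7.8e-06). It was lower in each treated library, under the fold threshold. RAN itself, which with RANBP1 had the highest levels of all members per kilobase of transcript, was at 559.6, 527 and 516 CPM in the DMSO libraries and 563, 569 and 588 CPM in the AZD4573 libraries. Its log2 fold change was 0.10 (SE 0.0434, adjusted p = 0.0503), with the treated libraries just above the controls, and it turned to -0.0035 with library size as the only scaling and -0.64 with mitochondrial scaling. Pseudogenes of RAN can share its reads. RANBP1, which helps RANGAP1 act on RAN, was at 0.32 (adjusted p = 5.1e-06), or -0.42 with mitochondrial scaling, and RANBP3, a cofactor of XPO1, at -0.24. The share of RCC1 in this group went from 7.82% ± 0.0987 to 3.74% ± 0.304 (SD, n = 3).

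Of the other names taken by the rule, RANBP9, a scaffold of the CTLH ubiquitin ligase, fell with a log2 fold change of -0.60 (-0.57 and not called without AZD4573 replicate 3), and its relative RANBP10 was at -0.44. NUP62CL was at 0.23 (adjusted p = 0.00714), or -0.51 with mitochondrial scaling. NUP210L, a relative of NUP210 known from the testis, had 3, 2 and 2 counts with DMSO and 13, 10 and 6 with AZD4573 and did not pass the filter. RANBP3L and RANBP20P, which reached 8 and 1 counts in a library, did not pass it either. RANBP20P is annotated as a processed pseudogene, and the rule kept it because no digits follow its final P.

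The relation of these changes to gene span was weak. Across the 59 members, Spearman's rho between the span of a gene and its log2 fold change was -0.12, and over 13423 protein-coding genes it was -0.026. These values are across genes of the same 6 libraries, and genes are not independent replicates. The members were long genes, with a median span of 63476 bases against 31486 for protein-coding genes. The 7 tested members under 20 kilobases had a median log2 fold change of -0.24, the 14 from 20 to 50 kilobases -0.37, and the 29 from 50 to 100 kilobases -0.44. The 9 of at least 100 kilobases had a median of -0.61 and ran from -0.95 (TNPO3) to 0.91 (XPO6). Protein-coding genes of the same span classes had medians of 0.0049, -0.12, -0.22 and -0.007. The level with DMSO and the log2 fold change had a rho of 0.24 over the members and -0.20 over protein-coding genes, where the DMSO level enters both measures.

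Of the 30 names left out, 10 were tested, of which 3 fell and 3 rose, near the 23.7% and 22.7% of all genes. Some of these lie beside members. NUP50-DT, a transcript that runs the other way from NUP50 on chromosome 22 and in RefSeq starts 144 bases from it, was at 4.36, 4.53 and 4.55 CPM in the DMSO libraries and 38.2, 38.1 and 39.1 CPM in the AZD4573 libraries. It rose, with a log2 fold change of 3.10 (SE 0.0639, adjusted p = 1.6e-12), while NUP50 was at -0.10. The window printed above for NUP50 holds the start of NUP50-DT, at 45163781 in RefSeq and 45163811 in GENCODE, and the exons of NUP50-DT share no base with another annotated gene. NUP153-AS1, whose exons share 649 bases with NUP153 on the other strand, fell with -0.67, but counts made without strand cannot separate the pair. IPO5P1, a pseudogene of IPO5, fell with -2.39, from 3.29 ± 0.396 to 0.623 ± 0.101 CPM (SD, n = 3), where IPO5 was at -0.30. Exons of IPO5P1 share 342 of 2887 bases with an unnamed gene on the same strand. NUP107-DT (0.69) rose from 1.09 ± 0.145 CPM and IPO9-AS1 (-1.38) fell from 1.06 ± 0.124 CPM (SD, n = 3), both with exon bases shared with their neighbours. KPNA2P3 (0.98) was called higher although its groups overlapped. All its 848 exon bases are shared with ARHGAP27P1-BPTFP1-KPNA2P3 on the same strand, so that the value cannot be assigned to it alone.

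Genes of the same pathway that the name rule does not take were counted from 3 lists, in which 13 of 60 tested genes fell (21.7%, against 23.7% of all genes) and 0 rose (against 22.7%). Of 22 other pore and transport factors, 7 fell (31.8%, against 27.2% of protein-coding genes) and 0 rose. By the adjusted p alone, 14 were lower (63.6%, against 37.4% of all genes) and 4 higher (against 37.3%). The largest fall was that of PHAX, the adaptor for snRNA export, with a log2 fold change of -1.84 (SE 0.0925, adjusted p = 9.5e-10), from 51.9 ± 4.06 to 14.5 ± 2.21 CPM (SD, n = 3). CSE1L, the exportin that returns importin alpha to the cytoplasm, was at 237, 223 and 212 CPM in the DMSO libraries and 124, 104 and 105 CPM in the AZD4573 libraries, a log2 fold change of -1.01 (SE 0.0654, adjusted p = 9.7e-09). AHCTF1 (-0.79), which seeds pore assembly on chromatin as ELYS, and RAE1 (-0.73), the partner of NUP98, were also among the 7. NXF1, the mRNA export receptor, was at -0.51 and its partner NXT1 at -0.29, neither called.

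The 23 genes of mRNA export (TREX and TREX-2 complexes and cap-binding proteins) stood near the shares of all genes by the adjusted p alone, with 10 of 22 tested lower and 8 higher beside 37.4% and 37.3% of all genes. By the fold rule 3 fell and 0 rose, where 23.7% and 22.7% of all genes did. THOC1, a subunit of the THO complex, had the largest fall, -0.98, while its partner THOC2 was at 0.34. Of 16 genes of the nuclear lamina and envelope, 3 fell (18.75%, against 23.7% of all genes) and 0 rose (against 22.7%). By the adjusted p alone, 7 were lower (43.75%, against 37.4%) and 5 higher (against 37.3%). LEMD3, an inner-membrane protein that restrains SMAD signalling, had the largest fall, -1.43. The median log2 fold change was -0.28 for the first list, -0.074 for mRNA export and -0.062 for the lamina and envelope, beside -0.39 for the members.

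The direction of the positive values depended on the scaling. mRNAs of the mitochondrial genome made up 3.04% to 3.22% of counts with DMSO and 4.67% to 4.98% with AZD4573. Scaled to the sum of these 13 mRNAs, the median of all genes moved from 0.026 to -0.71. Of the 59 tested members, 52 were called lower, where 53.4% of all genes were, and 0 higher, where 10.0% of all genes were. Of the 12 members with a positive log2 fold change under TMM, XPO6 alone stayed positive. Relative to the median of all genes, the member median was -0.42 under TMM and -0.42 under mitochondrial scaling. No value here tells which scaling is nearer to the amount in a cell.

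**Figure D5:**
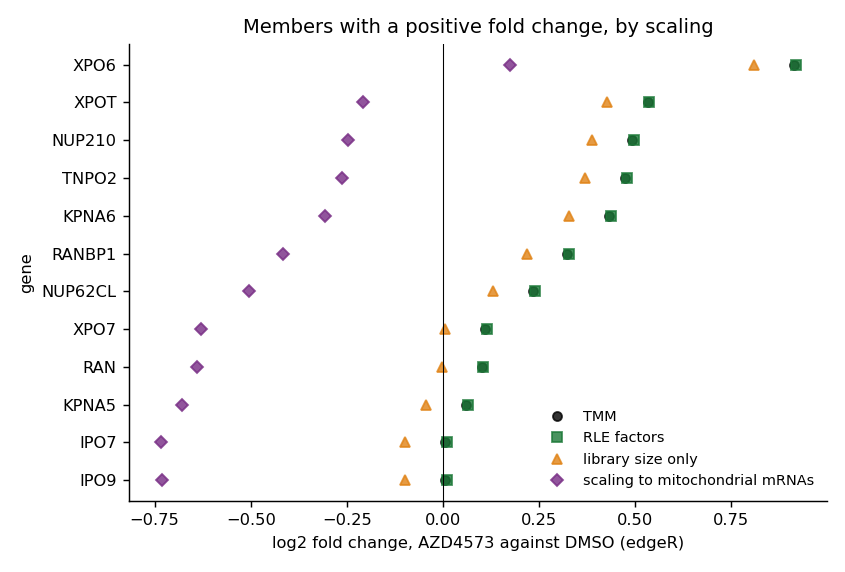
Log2 fold change, AZD4573 against DMSO, of the 12 members with a positive value under TMM, by scaling. Under mitochondrial scaling 11 of the 12 lie below 0, and XPO6 is at 0.17.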

How the data were processed

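RNA of H9 cells was sequenced, 3 libraries with DMSO and 3 with AZD4573, grouped by their labels. The deposited values were expected counts per gene, whole numbers made by the authors with Cutadapt 2.3, STAR 2.7.8a and RSEM 1.3.3 on GRCh38. The labels name poly(A) RNA and the study's methods rRNA depletion, a difference not settled here that could change the levels of transcripts without a long tail. The study's methods name a directional library kit and RSEM with default parameters. They state no strand setting, so that counts were read as made without strand. Beside the 61541 gene rows, 5 reporter rows held 0 counts and were left out.

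Counts were fitted across all genes with edgeR 4.0.16 in R 4.3.3: filterByExpr with a minimum count of 10 (17678 genes), TMM factors and the quasi-likelihood test of AZD4573 against DMSO without covariates. P values were adjusted by Benjamini-Hochberg over all genes tested, and the standard error was the log2 fold change divided by the square root of F. Calls required both a 1.5-fold change and an adjusted p below 0.05. On simulated counts for 17398 genes edgeR recovered 187 of 193 changed genes in this comparison and called 6 unchanged genes. In the simulation few genes changed, each by at least 2-fold, and all genes had the same dispersion. Recovery of smaller or more widespread changes was thus not tested.

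The members and all lists were chosen with earlier results of these data known. Names ending in P and digits were left out only where this marks a pseudogene (KPNA2P3), since names such as NUP35 and RANBP6 end the same way. Library values were given for the 10 largest falls and up to 10 rises among called members with at least 5 CPM in the higher group, and for a set of main transport factors whatever their values (XPO1, KPNB1, RAN, RCC1, RANGAP1, RANBP2, TPR, NUP98, NUP214, NUP62, KPNA2 and TNPO3). Of the other pathway lists, the largest called fall and rise and CSE1L, NXF1 and NXT1 were named by rule, and SEC13, AHCTF1, RAE1, THOC2 and POM121C were named after their values were seen, as were the names left out and the 4 upstream windows. Spans, exons and canonical transcripts came from GENCODE release 44, and upstream windows from RefSeq.

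Replicates of a group differed by more than sampling noise (chi-square per degree of freedom 5.62 to 21.5), so each counted as 1 sample. Alternatives were other scalings, filters and thresholds, each library left out, a replicate block and DESeq2 1.42.0. No p was computed over the members.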

Additional observations from a re-analysis of the deposited data

How the results depend on the processing

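DESeq2 and RLE factors gave the same call for each of the 59 members. Over all alternatives of scaling, filter, tool, block and left-out library, 701 of 767 single-member values kept their direction and call, 32 gained a call, 11 lost it and 23 changed sign. Apart from mitochondrial scaling, 46 of the 59 members kept both in each alternative. For these shifts the cause was not tested.

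Replicate numbers did not pair the libraries (same-number correlations of deviations -0.021, 0.042 and 0.032). With the replicate number as a block, 23 members were called lower and 1 higher, and 4162 genes of all were lower and 3926 higher.

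With scaling to mitochondrial mRNAs, 9433 genes of all were called lower and 1769 higher, 52 members lower and 0 higher, and 44 genes of the other pathway lists lower, and the member median was -1.13. At a fold change of at least 2, 2450 genes of all were lower and 2643 higher, 5 members lower and 0 higher, and 4 of the other lists lower. By the adjusted p alone, 6606 and 6596 genes of all, 44 and 8 members, and 31 and 17 of the other lists were lower and higher. With at least 10 counts in each library, fewer genes were tested, 3 of the other lists were called higher, and the member median was -0.35. It was -0.50 with library size only and -0.43 with no filter, where 2 members were called higher, the second being NUP210L, which the filter removes in the reported fit.

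With each library left out in turn, 19 to 24 members were lower and 1 to 2 higher, the second again NUP210L, which passed the filter without DMSO replicate 1, 2 or 3 or without AZD4573 replicate 3. Of the other lists 13 to 15 were lower and 0 to 1 higher, the 1 being called without DMSO replicate 2 and without AZD4573 replicate 1. The member median ran from -0.44 (without AZD4573 replicate 1) to -0.38, and all genes from 4142 to 4337 lower and 3872 to 4119 higher. Calls near the fold threshold moved: NUP98, RANBP2, KPNA1, KPNA4, POM121 and RANBP9 were under it with at least 10 counts in each library, and RANBP2, KPNA4, POM121 and RANBP9 without AZD4573 replicate 3. IPO8 (-0.68), KPNA2 (-0.65) and NUP160 (-0.64) passed it with library size only, IPO8 (-0.62) and KPNA2 (-0.59) with no filter, and IPO8 without DMSO replicate 1, DMSO replicate 3 or AZD4573 replicate 2.

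Signs changed with mitochondrial scaling for RAN (-0.64), RANBP1 (-0.42), XPO7 (-0.63), XPOT (-0.21), KPNA5 (-0.68), KPNA6 (-0.31), IPO9 (-0.73), IPO7 (-0.73), TNPO2 (-0.26), NUP210 (-0.25) and NUP62CL (-0.51). With library size only they changed for RAN (-0.0035), KPNA5 (-0.045), IPO9 (-0.099) and IPO7 (-0.098), and with no filter for IPO9 (-0.036) and IPO7 (-0.036). With a library left out, KPNA5 ran from -0.043 to 0.11, IPO9 from -0.045 to 0.029 and IPO7 from -0.020 to 0.019. The least abundant tested member had a mean of 11.4 CPM with DMSO.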
